A study of Mus musculus with 2 samples.

Results

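The 10 genes followed here store, move or recycle iron and heme: the ferritin chains Fth1 and Ftl1, the heme-degrading enzymes Hmox1, Blvra and Blvrb, the uptake receptor Tfrc, the importers Slc11a1, Slc11a2 and Slc39a14, and the exporter Slc40a1. They were chosen by name, for these roles, from the genes of the mouse annotation, with earlier results of these data known. Of these 10 genes, 9 could be read from their splice junctions, out of 10772 genes read in that way, and each of the 9 had at least 20 reads over both libraries (8363 genes had). Ftl1 could not, and is taken up below.

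RNA came from adherent macrophages of male C57BL/6JJcl mice, washed from the peritoneum 3 days after an injection of thioglycolate, an irritant that draws these cells in, and left to adhere for 24 h. The IL-10 group had interleukin 10, a cytokine that restrains inflammatory macrophages, at 100 ng/ml for 4 h, and the untreated group had none. There was 1 library per group, and no label says how many mice gave the cells. The groups follow the sample titles, because the protocol printed for the untreated sample is the same text as for the treated one.

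Macrophages of the spleen and liver engulf old red cells, break down their heme and return the iron to the blood. Heme oxygenase opens the heme ring and frees the iron, biliverdin reductase turns the resulting biliverdin into bilirubin, ferritin stores the iron in a protein shell, and ferroportin (Slc40a1) releases it from the cell. Many of these messenger RNAs carry a short hairpin, the iron-responsive element, which iron regulatory proteins bind when iron is scarce: at the 5′ end of a message the bound hairpin blocks translation, and at the 3′ end of the Tfrc message it slows decay.

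The hairpins are shown first because control through a 5′ hairpin acts on translation, which read counts do not register. GENCODE M21 transcripts were searched, on their own strand alone, for a loop of CAGTGN (N is A, C or T) closed by 5 base pairs. Below these, a single unpaired C on the 5′ side had to be followed by at least 4 more base pairs out of 5. G opposite T counted as a pair. Elements were found in the 5′ UTRs of Fth1, Ftl1 and Slc40a1, with 110, 148 and 202 bases between element and coding sequence, and 4 times in the 3′ UTR of Tfrc. Capitals mark the loop.
Fth1: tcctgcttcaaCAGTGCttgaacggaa
Ftl1: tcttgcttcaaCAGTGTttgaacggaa
Slc40a1: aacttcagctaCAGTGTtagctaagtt
Tfrc, nearest the coding sequence: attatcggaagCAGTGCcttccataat
Tfrc, next: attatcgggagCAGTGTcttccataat
Tfrc, next: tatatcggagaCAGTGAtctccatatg
Tfrc, farthest: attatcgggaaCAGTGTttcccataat
The same search found an element in a UTR of 13 of 21901 coding genes (0.0594%), of which these are 4. A match is a run of letters, not a measured structure, and elements of another form are not found by this search, which matched none in Slc11a2.

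The values are numbers of reads spanning a splice junction, summed over the introns of a gene and compared as a share of each library's reads on introns that belong to a single gene. The libraries were of near equal size, with 3998954 (IL-10) and 4035991 (untreated) junction reads, of which 96.0% and 95.8% lay on such introns. With 20 or more reads, a gene was called higher in the IL-10 library where its ratio reached 2, and lower where it was 0.5 or less, provided that the exact binomial 95% interval left out 1. Levels are also given as CPM, junction reads for each 1000000 reads on introns of a single gene. No replicate exists, so no test of the treatment is possible. An interval holds counting error and nothing of the spread between cultures, and reads copied during amplification would make it too narrow. A read that crosses several introns counts at each of them, which would also make the interval of a gene's sum too narrow. In bulk RNA, fewer cells of a type and less RNA per cell cannot be told apart. Macrophage markers led the marker lists in both libraries, with 8 of 9 measured and a summed 15927 (IL-10) and 20070 (untreated) CPM. Lyz2, a lysozyme gene, had 31849 and 45047 reads (ratio 0.712) and Cd68 14907 and 17303 (0.868), while Mrc1 (1340 and 936, 1.44), Itgam (521 and 397, 1.32) and Fcgr1 (405 and 336, 1.21) went the other way. Of the 8 genes, 4 had intervals below 1, 3 above and 1 over it, so the list was split. No erythroid marker, globins included, had matched introns. Neutrophil markers had 3 of 10 measured (S100a8 and S100a9 unmatched; Mmp9 1.03, Csf3r 1.17) with a sum of 242.9 and 224.5 CPM, fibroblast and mesothelial markers 5 of 7 (Col1a2 1.23, Col1a1 0.928) with 327.8 and 297.7, and B cell markers 2 of 5 (Cd22 0.912, Ighm 0.816) with 126.9 and 139.7. Eosinophil and mast cell markers had 2 of 7 (Siglecf 86 and 48 reads, 1.81; Tpsb2 0.916) with 27.6 and 18.4, and T and NK cell markers 0 of 5 (Cd3e 4 and 0 reads, Cd2 3 and 0) with 1.82 and 0. The lower macrophage sum in the IL-10 library came with Lyz2 as the gene of the largest difference in reads, and Siglecf stood higher; the part of either in the ratios below was not tested.

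Of the 9 measured iron and heme genes, 1 was called higher in the IL-10 library, beside 1.75% of all 8363 measured genes (146), and 0 were called lower, beside 1.49% (125). The gene called was Slc39a14. At lower ratios, the intervals of Hmox1 and Slc11a2 also lay above 1, those of Blvra and Slc11a1 lay below 1, and those of Fth1, Blvrb, Tfrc and Slc40a1 held 1. With Slc39a14 this made 3 of 9 intervals above 1 and 2 below, beside 12.8% (1073) and 13.0% (1091) of all measured genes. These shares are not matched to the 9 genes in depth, and an interval narrows as reads rise. Slc11a1, with 6416 (IL-10) and 6768 (untreated) reads, cleared 1 at a ratio of 0.955. Slc40a1, with 9 and 13 reads, did not at 0.698. The shares of intervals therefore cannot show an excess of changed genes, here or in the lists below. The median log2 ratio of the 9 genes was -0.004, and that of all measured genes -0.001. Transporters and enzymes of the pathway thus stood on either side of 1, and the storage chain at 1.

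**Figure D1:**
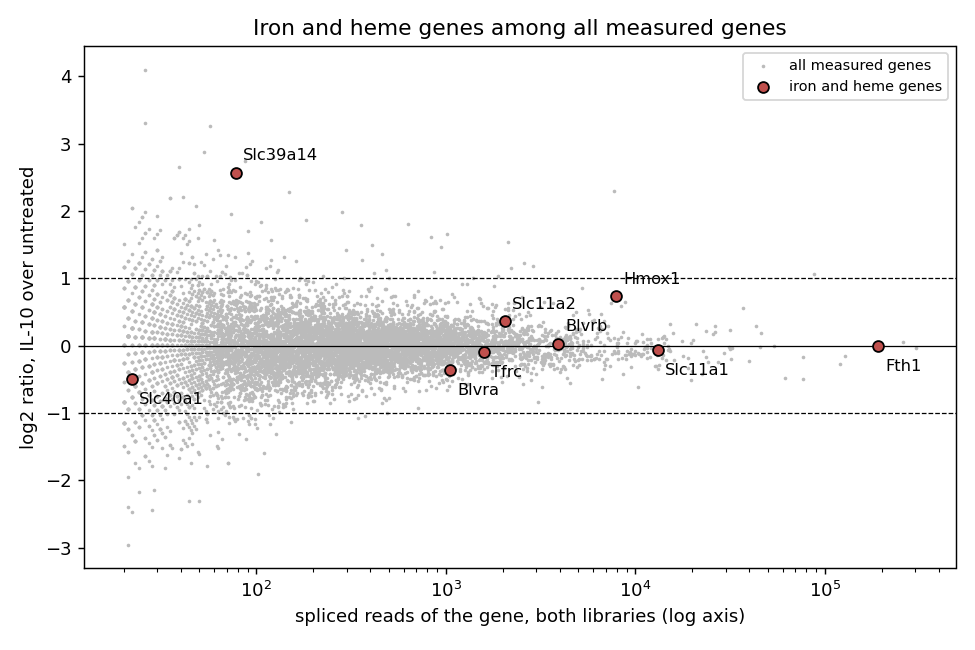
Each grey point is 1 of 8363 measured genes, placed by its spliced reads over both libraries (log axis) and by the log2 ratio of IL-10 over untreated; the 9 iron and heme genes are red, and dashed lines mark 2-fold. Slc39a14 lies above the upper dashed line at 2.56, Hmox1 lies at 0.73, and Fth1 lies at the right edge near 0.

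Fth1 encodes the ferritin heavy chain, which oxidises iron as it enters the shell. Its introns held 95303 reads with IL-10 against 96286 untreated, 24834 and 24905 CPM. The sums differed by less than counting error (ratio 0.997, 95% interval 0.988 to 1.006), though with the size factors of DESeq2 the interval just left out 1 (0.9898, 0.981 to 0.9987). The sum hides opposite shifts along the message. The first intron of the main form, on chromosome 19 at 10057474 to 10058670 of the mm9 build used for all positions here, held 17283 (IL-10) and 20564 (untreated) reads (0.847, 0.830 to 0.864). The second, at 10058818 to 10059049, had 33315 and 29501 (1.138, 1.12 to 1.156). The third, at 10059176 to 10059270, had 44688 and 46208 (0.974, 0.962 to 0.987). The 3 intervals do not overlap, so introns of the same message gave different ratios. Such spread was common among abundant genes. Of 166 genes with at least 2 introns of 1000 or more reads, Fth1 included, 93 had intervals apart. A log2 range as wide as the 0.43 of Fth1 or wider was found in 66, Fth1 included. The 40 bases around the second exon join of Fth1 also stand, letter for letter, in a processed pseudogene (Gm6977), and the part of such copies in the reads was not tested.

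**Figure D2:**
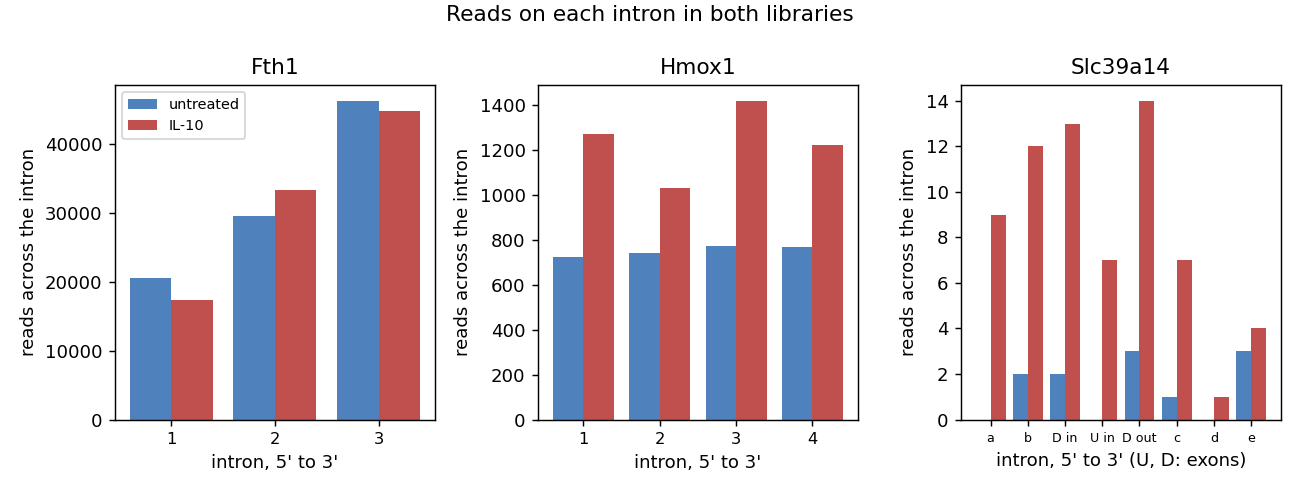
Bars give reads across each intron, in order from 5′ to 3′, in the untreated (blue) and IL-10 (red) libraries for Fth1 (introns of 100 or more reads), Hmox1 and Slc39a14; U and D are the upstream and downstream exons of Slc39a14 that replace each other, and "in" and "out" are the introns leading into and out of them. The taller Fth1 bar changes library between introns, while all 4 Hmox1 introns and all 8 Slc39a14 introns have more reads in the IL-10 library.

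Ftl1, the ferritin light chain, which helps the iron core to form, was all but absent from the junction lists. Its neighbours on chromosome 7, Gys1 and Bax, were both read, with junctions ending at 52710410 and starting at 52717333. Between these positions lay 8 junctions with 12 (IL-10) and 4 (untreated) reads in all, and 1 of them, from 52714052 to 52714453, had the length of an annotated Ftl1 intron, with 2 and 1 reads. Of its 6 annotated introns, no other had a junction of its length there. For an intron without a junction, a count of 0 allows up to 3 reads aligned there, or 0.782 (IL-10) and 0.776 (untreated) CPM. Around all 3 exon joins of its main transcript, the 40 bases of the spliced message stand without a mismatch in transcripts of other genes. Within 2 mismatches, 11 genes hold at least 1 of these stretches, among them Ftl1-ps1, Ftl1-ps2 and Ftl2-ps. Reads of such a message can align elsewhere without a junction. Whether they did was not tested, and the count says nothing of the Ftl1 level.

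Hmox1, the inducible heme oxygenase, had 4946 reads with IL-10 against 3004 untreated, 1289 and 777 CPM. Its ratio was 1.66 (1.585 to 1.736), below the 2-fold call. From 5′ to 3′, its 4 introns had 1271 against 724 reads (1.77), 1032 against 740 (1.41), 1419 against 773 (1.85) and 1224 against 767 (1.61). All 4 introns had more reads with IL-10, and their intervals did not all overlap. Among 213 genes with reads within 2-fold of those of Hmox1, itself included, 3 had a ratio at least as high (1.41%). Hmox2, the constitutive heme oxygenase, stood on the other side, with 1012 and 1414 reads (0.721, 0.665 to 0.782), and each of the 7 introns that held at least 5 reads was below 1. Por, the reductase that feeds electrons to both oxygenases, had 4381 and 4030 (1.095, 1.049 to 1.143).

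Biliverdin reductase A, Blvra, had 461 (IL-10) and 598 (untreated) reads, a ratio of 0.777 (0.686 to 0.878). Of its 8 introns with 5 or more reads, 7 were below 1, the lowest on chromosome 2 at 126912679 to 126917774 with 25 and 51 reads (0.494, 0.293 to 0.812). Among 1750 genes with like numbers of reads, Blvra included, 77 had a ratio as low (4.40%). Biliverdin reductase B, Blvrb, a second enzyme that reduces biliverdin and flavins, had 1974 and 1957 reads, and its interval held 1 (1.016, 0.954 to 1.082). The 3 enzymes of heme breakdown thus had ratios above, below and at 1 in these libraries.

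Tfrc encodes the transferrin receptor, which brings transferrin-bound iron into the cell. The IL-10 library held 765 of its reads and the untreated library 820 (0.940, 0.851 to 1.038), and 6 of its 18 introns were above 1 and 12 below. The intron at 32624913 to 32625069 on chromosome 16 had 0 reads with IL-10 and 11 without, at least 3.64-fold lower against a floor of 3 reads, while the introns on either side of it had 3 and 3 reads and 35 and 36 reads. It was picked out after its values were seen.

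Slc11a1 (Nramp1) pumps iron and other divalent metals out of the phagosome of macrophages. It had 6416 and 6768 reads (0.955, 0.923 to 0.988), close to 1 with an interval that left it out. Of 15 introns with 5 or more reads, 4 were above 1 and 11 below. The 40 bases at 4 of its 14 exon joins stand within 2 mismatches in a processed pseudogene (Gm4829). The introns with the lowest ratios were at 74423851 to 74426356 on chromosome 1, with 102 and 165 reads (0.623, 0.482 to 0.802), and at 74431345 to 74431714, with 116 and 178 (0.657, 0.515 to 0.834). The donor of the latter also joined the exon after the next, at 74431966, in 10 of 126 reads with IL-10 (7.94%, 3.87 to 14.1) and 4 of 182 without (2.20%, 0.602 to 5.53). These intervals overlap.

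Slc11a2 (DMT1, divalent metal transporter) carries iron out of the endosome after transferrin uptake. It had 1152 (IL-10) and 902 (untreated) reads, 300.2 and 233.3 CPM, a ratio of 1.29 (1.178 to 1.405). Of its 16 introns with 5 or more reads, 14 were above 1. Among 904 genes with like numbers of reads, Slc11a2 included, 65 had a ratio at least as high (7.19%). Nearly all reads entering its second exon came from the same first exon in both libraries (208 of 211 with IL-10, 98.6%, and 153 of 158 without, 96.8%), the other annotated first exon having 1 and 3. The gene also has alternative 3′ ends, known to differ in a hairpin that the search above did not match, which give the protein different tails. Both coding ends are shown because junction reads see only the first: the sequence after the last intron, and the sequence of the form that reads on into that intron. Capitals mark the stop codon.
Slc11a2, spliced end: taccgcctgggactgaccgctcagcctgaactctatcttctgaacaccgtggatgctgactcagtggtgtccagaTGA
Slc11a2, read-on end: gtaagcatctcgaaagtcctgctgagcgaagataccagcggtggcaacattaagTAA
The last intron, on chromosome 15 at 100219593 to 100225700, held 3 (IL-10) and 8 (untreated) reads (0.378, 0.0646 to 1.57), beside 30 and 24 on the intron before it. The interval held 1, and the other end leaves no junction of its own to count.

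Slc40a1, ferroportin, the exporter of iron from the cell, was barely read, with 9 (IL-10) and 13 (untreated) reads over 5 introns. The ratio of 0.698 had an interval from 0.263 to 1.76, which held both 1 and a level 2-fold lower, so a difference of that size was not detectable at this depth.

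Slc39a14 (ZIP14) takes up zinc, manganese and iron that is not bound to transferrin, and is known as an acute-phase gene of the liver. It had 67 reads with IL-10 against 11 untreated, 17.5 and 2.85 CPM. The ratio was 6.14 (3.22 to 12.9), and all 7 introns with 5 or more reads were above 1. Of 2539 genes with reads within 2-fold of its own, Slc39a14 included, 6 had a ratio at least as high (0.236%). On chromosome 14, on the minus strand, the 5′-most intron (70718748 to 70731075) had 9 reads with IL-10 and 0 without, with an interval from 1.99 upward. With 3 reads in place of the 0, this is 3.02-fold higher. The second intron (70716432 to 70718468) had 12 and 2. Toward the 3′ end, the intron at 70710079 to 70710662 had 7 and 1 reads, that at 70709773 to 70709889 had 1 and 0, and that at 70708642 to 70709564 had 4 and 3.

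In the middle of the gene, 1 of 2 exons is used and the other left out, a choice known to give the transporter a different stretch of sequence. In the IL-10 library, 13 reads entered the downstream exon and 7 the upstream exon, which gave the upstream exon 7 of 20 (35.0%, 15.4 to 59.2). In the untreated library, 2 reads entered the downstream exon and 0 the upstream one (0%, 0 to 84.2). The share could not be compared between libraries at this depth. On the far side, 14 and 3 reads left the downstream exon, and 0 left the upstream exon in either library, so the sides of the upstream exon did not match in the IL-10 library. The count into the upstream exon alone, 7 against 0, had an interval from 1.45 upward, and was 2.35-fold higher with 3 reads in place of the 0.

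**Figure D3:**
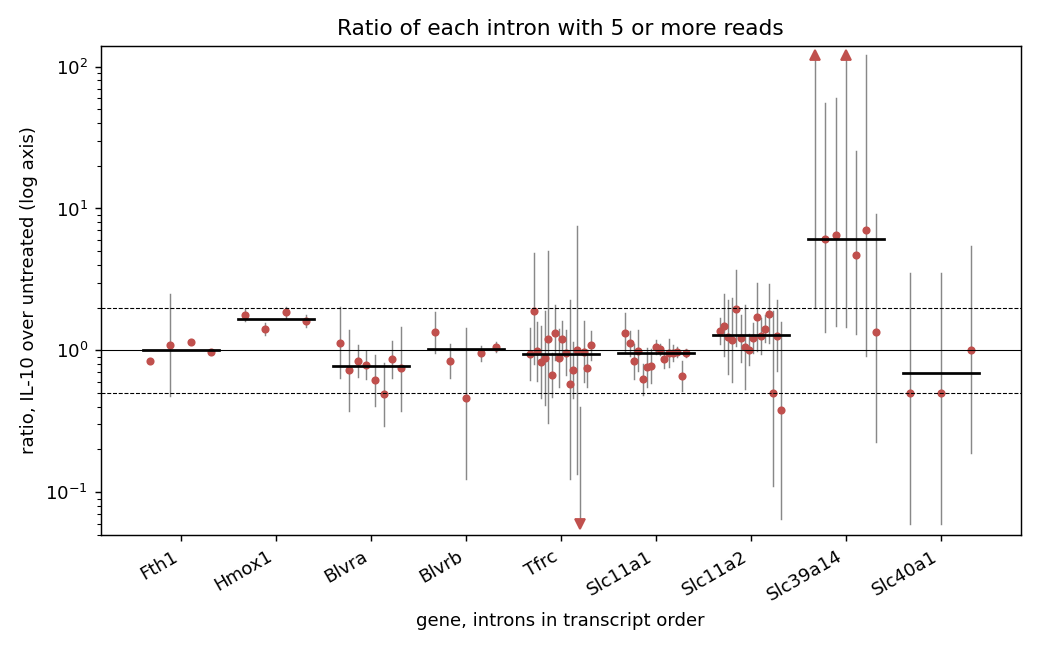
Red points give the ratio of IL-10 over untreated (log axis) for each intron with 5 or more reads, in transcript order within each gene, with grey bars for the 95% interval, cut at the frame; triangles mark introns with 0 reads in the untreated (up) or IL-10 (down) library, black lines the gene's summed ratio and dashed lines 2-fold. All 4 Hmox1 points and all 7 Slc39a14 points lie above 1, and 7 of 8 Blvra points lie below it.

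Of the 7 iron and heme genes with at least 2 introns of 100 or more reads, Fth1, Hmox1 and Slc11a1 had introns with intervals apart, beside 28.2% of 1984 such genes (559). The other 4 (Blvra, Blvrb, Tfrc and Slc11a2) had log2 ranges of 0.47, 0.66, 0.82 and 0.50 with overlapping intervals, against a median of 0.55 over the 1984 genes. Junctions of these genes that shared a donor or an acceptor with at least 20 reads in each library were compared by share. A junction could be entered at its donor and again at its acceptor. Of 78 entries, 0 differed by 20 points with intervals apart, beside 0.133% of 20246 entries over all junctions (27). The entries were of Fth1, Hmox1, Blvra, Blvrb, Slc11a1 and Slc11a2, and none of the other members. Many set a rare unannotated junction beside a dominant one, where a 20-point difference was out of reach. With annotated junctions alone, 18 entries remained and 0 were called. One of these choices is the start of Blvra on chromosome 2, with reads that entered the second exon at 126906265. The annotated donor of the far first exon, at 126896467, gave 28 of 53 reads (52.8%) with IL-10 and 25 of 59 (42.4%) without. An unannotated donor beside it, at 126896462, gave 7 and 7. A nearer first exon gave 18 (34.0%) and 25 (42.4%), and a donor at 126904814 gave 0 and 2.

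Around these genes, 89 others of iron, heme and zinc biology were read from 10 lists. Of these, 73 had matched introns and 63 were measured, 1 was called higher and 0 lower, and 11 intervals lay above 1, 6 below and 46 over it. These counts are near the shares over all measured genes, 1.75% called higher, 12.8% with intervals above 1 and 13.0% below. The shares were not matched in depth. The median log2 ratio of the 63 genes was 0.01. The gene called was Slc25a37 (mitoferrin 1), which brings iron into the mitochondrion for heme synthesis, with 31 reads against 10 (3.12, 1.49 to 7.14), and its 3 introns were above 1. Its relative Slc25a28 (mitoferrin 2) had 39 and 34 (1.16). Steap3, the endosomal ferrireductase that works beside Slc11a2, had 127 and 156 (0.820, 0.644 to 1.043), and the median log2 ratio of the 7 measured genes of uptake and export was -0.06.

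Of 3 measured genes of ferritin handling and 5 of iron sensing, Aco1 was the 1 gene with an interval clear of 1. Pcbp2, an iron chaperone of ferritin, stood at 1.004, Ncoa4, the receptor for ferritin breakdown, at 1.05 and Tax1bp1, which also carries ferritin to the lysosome, at 0.967. Aco1, iron regulatory protein 1, which binds the hairpins shown above, had 690 and 849 reads (0.819, 0.739 to 0.906), with 13 of the 20 introns of 5 or more reads below 1. Hfe stood at 1.36 and Lcn2, which binds bacterial iron carriers, at 1.37, both with intervals that held 1.

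In the list of heme and hemoglobin uptake, Hp (haptoglobin, which binds free hemoglobin) had 481 and 306 reads (1.58, 1.37 to 1.83), with the 4 introns of 5 or more reads above 1, and 0 of 9 measured genes were called. The heme carrier Slc46a1 (0.720) and the exporter Abcg2 (0.840) had intervals that held 1. All 8 measured genes of heme synthesis had intervals that held 1, among them Alad (1.28) and Uros (0.728), and their median was -0.01. Of 8 measured genes of iron-sulphur cluster assembly, Hscb, a co-chaperone, had an interval below 1 (34 and 59 reads, 0.581, 0.369 to 0.900), and Lyrm4 (0.537) and Isca2 (1.55) did not clear 1.

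Hmox1 is a known target of the repressor Bach1 and the activator Nrf2 (Nfe2l2), which pair with small Maf proteins. Bach1 had 103 reads in each library. Nfe2l2 had 593 and 705 (0.847, 0.758 to 0.947), Mafg 83 and 47 (1.78, 1.23 to 2.60), Nfe2l1 171 and 140 (1.23, 0.978 to 1.55) and Mafk 9 and 12. Other targets of this pair did not share a side. Prdx1, a peroxidase, had 2935 and 2343 reads (1.26, 1.195 to 1.333). Gclm had 521 and 442 (1.188, 1.044 to 1.351) and Txnrd1 1970 and 1829 (1.085, 1.018 to 1.157). On the other side, Sqstm1, an autophagy receptor, had 2197 and 2763 (0.801, 0.757 to 0.848). Srxn1, which repairs peroxidases, had 73 and 107 (0.687, 0.503 to 0.934). Whether Bach1 or Nrf2 had a part in the Hmox1 ratio was not tested. In all, 8 targets were measured, 3 with intervals above 1 and 2 below, with a median log2 ratio of 0.05, and 0 were called; over all measured genes, 12.8% had intervals above 1 and 13.0% below.

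Zinc genes were read because Slc39a14 carries zinc too. Mt2, a metallothionein that binds zinc, had 191 and 133 reads (1.45, 1.15 to 1.82), but its more abundant sister Mt1 had 1771 and 1752 (1.018, 0.953 to 1.089). Mtf1, the factor that senses zinc, had 96 and 69 (1.402, 1.018 to 1.938). Slc39a13, another ZIP transporter, had 26 and 39 (0.672, 0.393 to 1.132). The other measured ZIP genes of this list were above 1. Slc39a10 had 143 and 103 reads (1.399, 1.078 to 1.82), and Slc39a6 (1.107) and Slc39a7 (1.032) had intervals that held 1. Of 7 measured genes 3 had intervals above 1 (beside 12.8% of all measured genes), 0 below, and 0 were called, and the list's median of 0.15 was the second highest of the 10 lists.

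**Figure D4:**
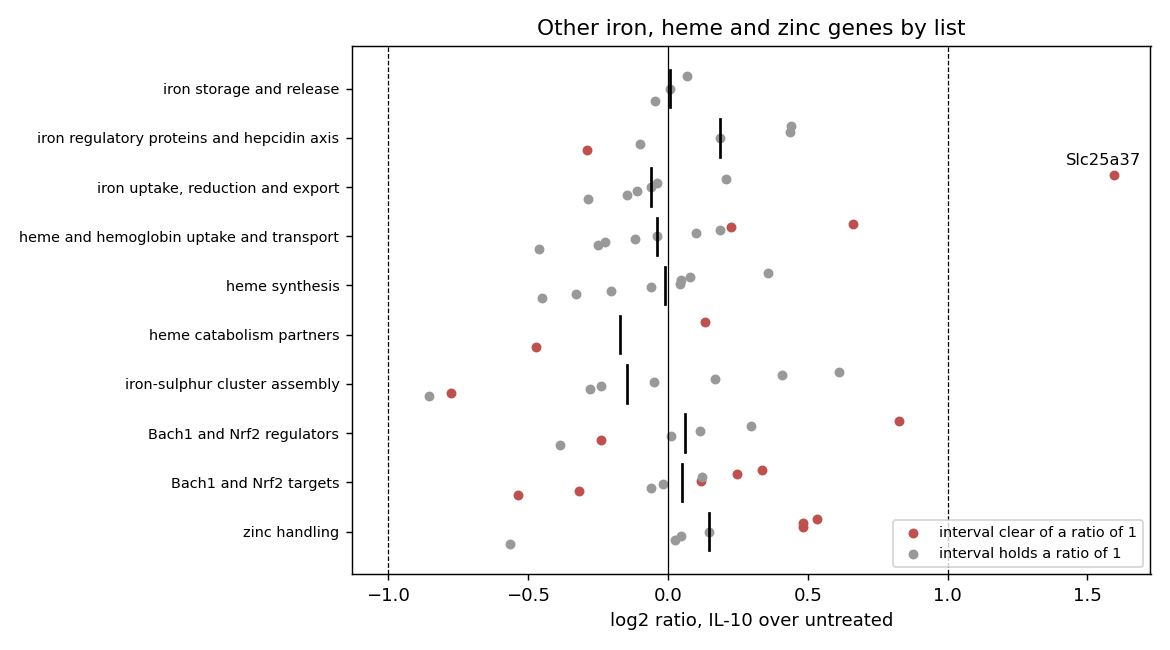
Each point is a measured gene of 1 of 10 lists (rows), placed by its log2 ratio of IL-10 over untreated; red points have a 95% interval clear of 1, black ticks mark the list's median and dashed lines 2-fold. Slc25a37 at 1.60 is the lone point beyond a dashed line, and the medians lie between -0.17 and 0.19.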

How the data were processed

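TopHat, Cufflinks and the mm9 build are named, without versions, in the submitters' processing notes; strand setting, read length and filters are not given in the sources used here. Per the file headers, each deposited value is the count of reads over a splice junction, unscaled, with 109870 (IL-10) and 110102 (untreated) junctions, and insert sizes per the labels were 188 and 197 bp. With no mm9 annotation used here, a junction was named through GENCODE M21 (GRCm38) by chromosome, strand and exact intron length, where at least 2 introns of a gene shared an offset of up to 20 Mb. Of 131057 junctions, 105022 matched 1 gene and 1319 several; unmatched junctions carry no gene name and were left out of gene sums. All positions printed are those of the deposited junctions.

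Gene sums were divided by the library's total on introns of 1 gene (3837551 and 3866119 reads). The ratio's interval is Clopper-Pearson at 95%, conditional on the gene's total; log2 ratios used 0.5 added reads, and 3 reads stood in for a count of 0. The genes and lists were chosen with earlier results of these data known. Each pathway list's called genes and up to 3 measured genes with the largest absolute log2 ratio were named. So were the 2 markers of each cell type with the most reads. Bach1, Nfe2l2, Gclm, Txnrd1, Steap1, Steap4, Mt1, Slc39a10, Slc39a6, Slc39a7, Mrc1, Itgam and Fcgr1 were named beyond that rule, after their values were seen. Some items that the rule names are not reported here. Alternatives covered scaling, thresholds, introns used and overhang. The procedure was tested on simulated data. Work ran in Python 3.11.15 (numpy 2.4.6, scipy 1.17.1, pandas 2.3.3, matplotlib 3.10.9) and R 4.3.3 (edgeR 4.0.16, DESeq2 1.42.0, for scaling factors alone).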

Additional observations from a re-analysis of the deposited data

How the results depend on the processing

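No paired analysis was possible because each group has 1 library. Slc39a14 alone was called higher among the 9 genes. At a minimum of 100 reads 0 were called, beside 37 of all genes. On each gene's best-covered intron, where Slc39a14 had under 20 reads, 0 were called, beside 157 of all genes. At 1.5-fold 2 were called, Hmox1 being added, beside 356 of all 8363 measured genes. No member was called lower under any alternative run, and no member's ratio changed sides of 1 except those of Fth1 and Tfrc, whose ratios ran from 0.974 to 1.001 and from 0.933 to 1.083. Hmox1 ranged from 1.65 to 1.85, Slc11a2 from 1.28 to 1.42 and Slc39a14 from 6.09 to 6.16. Over all genes, calls higher were 202 with no minimum, 37 at 100 reads, 356 at 1.5-fold, 53 at 3-fold and 107 with 99% intervals. Calls lower were 190 with no minimum, 10 at 100 reads, 336 at 1.5-fold, 29 at 3-fold and 77 with 99% intervals. Of the 63 measured pathway genes, 3 were called higher and 1 lower at 1.5-fold, beside 356 and 336 of all 8363. With no minimum 2 were called higher (Steap1 being added), beside 202 of all genes. At 100 reads 0 were called higher, beside 37, and on best-covered introns 2, beside 157. The number of genes measured changes with the minimum and on best-covered introns, so those counts give no share. The scaling factors (TMM ratio 0.996, DESeq2 ratio 1) moved no call of a member. The interval of Fth1 left out 1 with DESeq2 scaling and on its best-covered intron (0.962 to 0.987), and that of Slc11a1 held 1 on its own (0.894 to 1.026). For the exon choice of Slc39a14, alternatives on the minimum of reads and on points were not run, as the untreated library held 2 reads; the share in the IL-10 library was 35.0% under the others. With 1 library per group, depth limits Slc40a1, Slc39a14 and the last intron of Slc11a2 most.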
